A study of Homo sapiens with 18 samples.

Results

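Connexins are the proteins that gap junctions are built from, and 7 connexin genes are described here: GJA1, GJA3, GJA4, GJB2, GJB5, GJB6 and GJC1. They were taken by symbol from the 40266 gene symbols of the expression table and are 7 of the 21 connexin genes of the family. They were chosen by their levels in these samples, the Panc1 gap in GJA1 among them, so their levels and differences are given as a description and no p-value is given for any of them. How many of them passed the fit across all genes is given only as a count beside the share of all genes that did, and tests of single genes are given only outside the 7. RNA was sequenced from 2 established human lines of pancreatic ductal adenocarcinoma (PDAC), each as parental cells, Holoclone cells and Paraclone cells, with 3 replicates in each of the 6 groups and 18 libraries in all. Panc1 came from a primary tumor and served as the mesenchymal-like model, and Panc89 came from a lymph node metastasis and served as the epithelial model. Holoclone cells stood for the stem-like and Paraclone cells for the non-stem-like fraction of each line, and none of the groups was treated. Each Holoclone or Paraclone group was expanded from 1 single cell and its replicates are passages of that clone, so p-values measure the spread between passages and say nothing of other clones. In bulk RNA, fewer cells expressing a gene and less RNA per cell cannot be told apart.

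A connexin spans the membrane of one cell and joins with others of its kind into a hexameric hemichannel. A hemichannel docks with one on the neighboring cell, and the resulting channel passes ions, metabolites and second messengers directly from cytoplasm to cytoplasm. Members are sorted by sequence into alpha (GJA), beta (GJB) and gamma (GJC) groups, and which of them a cell makes decides which channels it can build and with which neighbors. In epithelia, Cx43 (the product of GJA1) and Cx26 (the product of GJB2) are among the best known, and both have been studied in carcinomas with respect to growth, migration and contact with endothelium.

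The values are log2(TPM + 1), where TPM is a share of the sequenced transcripts corrected for their length. A difference is a difference of group means on this scale, which shrinks differences of genes at about 1 TPM or less. TPM keep no read totals, so the depth of the libraries and the counting error are unknown. Between 12932 and 14199 genes per library reached 1 TPM, and the mean correlation of a library with its group was lowest, at 0.962, for Panc89 Paraclone replicate 2. Of the 5 mesenchymal markers, 4 (VIM, ZEB1, NES and SPARC) were higher in every Panc1 than in every Panc89 library, with VIM, an intermediate filament, at 10.98 to 12.30 and 0.03 to 0.54, while ZEB2 overlapped (0.24 to 0.91 and 0.55 to 1.92). Of the 7 epithelial markers, CDH1, EPCAM and KRT7 were higher in every Panc89 library, with the cadherin CDH1 at 0.74 to 2.17 in Panc1 and 6.22 to 6.75 in Panc89. The other 4 overlapped between the lines: the Panc1 libraries had KRT8 at 9.32 to 10.99, a higher range than the 8.57 to 9.72 of Panc89, and KRT18, KRT19 and SOX2 overlapped too. SOX2, at most 0.46 in Panc1, overlapped only with Panc89 Paraclone cells (0.32 to 0.99). It averaged 4.77 in Panc89 parental and 5.10 in Panc89 Holoclone cells. The study counts NES and SOX2 among its stem cell markers. Of the leukocyte markers, PTPRC reached at most 0.97 and CD3E at most 0.05, while CD68 lay between 3.22 and 7.24. Of the endothelial markers, VWF reached at most 0.44, whereas PECAM1 averaged 5.93, 0.87 and 2.36 and CDH5 2.20, 0.47 and 1.35 in Panc89 parental, Holoclone and Paraclone cells.

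The members lie at 4 places in the genome (GENCODE 44, GRCh38). GJA1 is on chromosome 6 at 121435595 to 121449727 on the plus strand. GJA3 (20138255 to 20161052), GJB2 (20187463 to 20192938) and GJB6 (20221962 to 20232365) follow each other on the minus strand of chromosome 13 within 94.1 kb. GJB5 (34755047 to 34758512) and GJA4 (34792999 to 34795747) lie on the plus strand of chromosome 1 in a stretch of 40.7 kb. GJC1 lies on the minus strand of chromosome 17 at 44798448 to 44830816. No exon of the 7 genes overlaps an exon of another gene, and GJA1P1, the processed pseudogene of GJA1, reached at most 0.0928 TPM in any library.

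RefSeq sequence before the start site was at hand for 4 of the 7 members (build GRCh38.p14). Shown are 3 stretches, of GJA1, GJA3 and GJB2, the last pair neighbors on chromosome 13. The window of GJB6 (20230979 to 20231228) is not shown, since too little of it lies before an annotated exon. Capitals mark matches on either strand to the AP-1 motif TGANTCA, the SP1 box GGGCGG and the TFAP2 motif GCCNNNGGC, which overlaps an SP1 box in GJB2.
GJA1 (chr6:121435396-121435604, plus strand): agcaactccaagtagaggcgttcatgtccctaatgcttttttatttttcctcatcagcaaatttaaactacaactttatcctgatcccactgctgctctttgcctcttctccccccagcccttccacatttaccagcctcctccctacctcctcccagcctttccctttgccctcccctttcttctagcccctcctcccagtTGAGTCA
GJA3 (chr13:20161053-20161302, minus strand): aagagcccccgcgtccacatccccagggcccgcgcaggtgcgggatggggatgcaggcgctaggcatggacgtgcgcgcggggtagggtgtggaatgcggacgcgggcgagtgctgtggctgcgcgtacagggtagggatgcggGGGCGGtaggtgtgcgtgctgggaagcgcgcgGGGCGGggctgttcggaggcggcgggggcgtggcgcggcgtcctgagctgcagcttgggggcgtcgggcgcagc
GJB2 (chr13:20192939-20193188, minus strand): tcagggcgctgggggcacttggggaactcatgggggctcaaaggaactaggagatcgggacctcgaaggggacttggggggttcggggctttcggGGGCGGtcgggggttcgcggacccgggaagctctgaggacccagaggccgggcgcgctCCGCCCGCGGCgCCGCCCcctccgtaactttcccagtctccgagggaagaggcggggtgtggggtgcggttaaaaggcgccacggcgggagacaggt

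The window of GJA1 held the AP-1 motif 1 time, starting 48 bases before the RefSeq start. That match lies inside the first exon of the most upstream GENCODE transcript. GJA3 held the SP1 box 2 times, and GJB2 held the SP1 box 3 times and the TFAP2 motif 1 time. Over the 250 bases before the start, the G and C content was 48.0% in GJA1, 74.8% in GJA3, 70.0% in GJB2 and 50.8% in GJB6, whose window held none of the 3 motifs. Of 35116 RefSeq promoters searched over the same length, 6.57% held the AP-1 motif, 42.6% the SP1 box and 19.8% the TFAP2 motif. A match describes these letters only.

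GJA1 was the member with the widest range, from 0.89 to 7.30 over the 18 libraries. In Panc1 parental cells it lay at 3.77, 3.74 and 3.87 in replicates 1, 2 and 3 (12.9 ± 0.659 TPM, SD, n = 3, as for all values below). Panc1 Holoclone cells had 0.89, 1.45 and 1.16 (1.27 ± 0.439 TPM), and Panc1 Paraclone cells had 7.13, 6.95 and 7.30 (139.5 ± 17.3 TPM). The 3 Panc1 groups did not overlap, with the parental cells between the 2 clones. The Holoclone minus Paraclone difference was −5.96 (SE 0.278), the Holoclone minus parental difference −2.63 and the Paraclone minus parental difference 3.34. The macrophage and lysosome marker CD68 had the same order in Panc1, with means of 5.93, 6.52 and 7.07 in Holoclone, parental and Paraclone cells. The summed level of the 3 leukocyte markers ran from 52.2 to 69.0, from 88.0 to 96.8 and from 123.6 to 150.6 TPM, with PTPRC at most at 0.07 and CD3E at most at 0.04 in Panc1, and the part of such cells in the GJA1 level was not tested.

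In Panc89 the order of the clones was the other way around and the gap was smaller. Panc89 parental cells had GJA1 levels of 4.39, 4.14 and 4.41 (19.0 ± 2.04 TPM), and Panc89 Holoclone cells had 5.35, 5.12 and 4.93 (34.4 ± 5.13 TPM). Panc89 Paraclone cells had 3.53, 5.06 and 3.90 (19.0 ± 11.7 TPM), so replicate 2 reached into the Holoclone range while the other two lay below every Holoclone library. The Holoclone minus Paraclone difference was 0.97 (SE 0.278), and 1.42 without Panc89 Paraclone replicate 2. Paraclone and parental cells overlapped, and their difference of −0.15 became −0.60 without that library. The sign of the gap between the lines depended on the variant: GJA1 was higher in Panc89 by 0.52 for parental cells and by 3.97 for Holoclone cells, and differed by −2.96 for Paraclone cells, with no overlap in each case.

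Ordered by mean, GJA1 ran from Panc1 Paraclone over Panc89 Holoclone, Panc89 parental, Panc89 Paraclone and Panc1 parental to Panc1 Holoclone cells. The Panc89 Paraclone libraries overlapped both their neighbors in that order, and all other neighbors were apart. By the root mean square difference of centred profiles over the 18 libraries, the tested genes most alike were RBPMS (0.745), SNCG (0.825) and MARCKS (0.872). RBPMS, an RNA-binding protein gene, averaged 4.68 in Paraclone and 0.65 in Holoclone cells of Panc1, with 2.90 to 3.02 in the 3 Panc89 groups. MARCKS, a substrate of protein kinase C at the membrane, averaged 6.61 in Paraclone and 3.26 in Holoclone cells of Panc1. The tested genes nearest to GJA1 on either side, TBC1D32 at 100.8 kb and HSF2 at 949.8 kb, averaged 3.01 and 4.22 in the Paraclone and 2.93 and 4.66 in the Holoclone cells of Panc1.

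**Figure D1:**
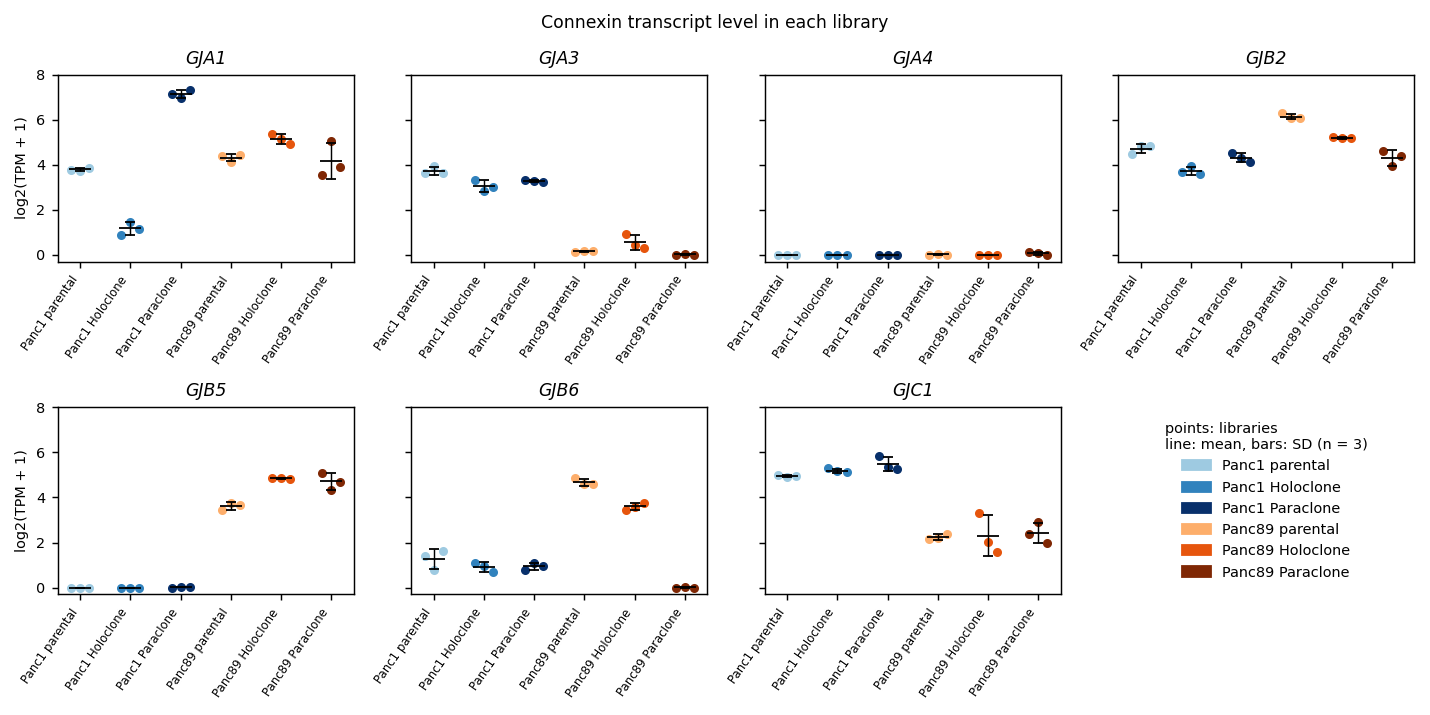
Level of each of the 7 connexins in log2(TPM + 1) on the vertical axis for the 6 groups, with a point for each library, a line at the mean and bars of 1 SD (n = 3). GJA1 is highest in Paraclone (6.95 to 7.30) and lowest in Holoclone cells (0.89 to 1.45) of Panc1, GJB5 is at or near 0 in every Panc1 library, and GJB6 is at or near 0 in Panc89 Paraclone cells.

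GJA3, best known from the lens, separated the lines. It lay at 3.64, 3.92 and 3.62 in Panc1 parental cells, at 3.32, 2.81 and 3.02 in the Holoclone and at 3.33, 3.27 and 3.21 in the Paraclone cells of the line. In Panc89 it lay at 0.14, 0.19 and 0.17 in parental, at 0.91, 0.41 and 0.31 in Holoclone and at 0.01, 0.05 and 0.01 in Paraclone cells. Every Panc1 library was thus above every Panc89 library, and no Panc89 library reached 1 TPM. Within Panc1 the parental cells were above both clones, by 0.68 and 0.46, and the 2 clones overlapped. Within Panc89 the Holoclone minus Paraclone difference was 0.52, between levels that were all low.

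GJA4, a connexin of endothelium, was listed at 0 in 15 of the 18 libraries and reached at most 0.0829 TPM, in Panc89 Paraclone cells. It is the 1 member that did not pass the filter on low values (at least 1 TPM in at least 3 libraries), and no difference is given for it.

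GJC1 encodes a gamma connexin known from the heart and smooth muscle. It was high in all Panc1 groups, at 5.02, 4.92 and 4.94 in parental, 5.29, 5.18 and 5.12 in Holoclone and 5.84, 5.37 and 5.24 in Paraclone cells. Panc89 had 2.13, 2.20 and 2.39 in parental, 3.31, 2.02 and 1.58 in Holoclone and 2.40, 2.90 and 1.98 in Paraclone cells. The lines did not overlap in any variant, with Panc89 minus Panc1 differences of −2.72 in parental, −2.89 in Holoclone and −3.06 in Paraclone cells. Within Panc89 the 3 groups overlapped, and the Holoclone libraries were spread widely because replicate 1 stood above the other two. ADAM11, the nearest tested gene at 16.6 kb, averaged 1.57 to 2.24 in the Panc1 groups and 0.14 to 0.45 in the Panc89 groups. EFTUD2, on the other side at 19.1 kb, averaged 6.30 to 6.67 and 6.42 to 6.58.

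Among the beta connexins, GJB2, whose product Cx26 is widely made in epithelia and is known from hereditary deafness, was present in all 6 groups. In Panc1 it lay at 4.49, 4.81 and 4.84 in parental, at 3.70, 3.93 and 3.57 in Holoclone and at 4.54, 4.27 and 4.13 in Paraclone cells. In Panc89 it lay at 6.27, 6.05 and 6.07 in parental, at 5.24, 5.18 and 5.17 in Holoclone and at 4.60, 3.92 and 4.40 in Paraclone cells. Panc89 parental libraries were the highest of all, at 69.2 ± 6.17 TPM, and Panc1 Holoclone libraries were the lowest on average, at 12.3 ± 1.71 TPM. The Holoclone minus Paraclone difference was −0.59 (SE 0.166) in Panc1 and 0.89 (SE 0.166) in Panc89, without overlap in either line. Below the 2 highest groups the means ran from Panc1 parental over Panc1 Paraclone and Panc89 Paraclone to Panc1 Holoclone cells, each overlapping the next. Panc89 exceeded Panc1 by 1.42 in parental and 1.47 in Holoclone cells, while the Paraclone cells of the lines overlapped at means of 4.31 and 4.31. TLR5 (0.358), MRPL23-AS1 (0.364) and DNM3 (0.408) were the tested genes most alike to GJB2 over the 18 libraries, all of them at means under 1.92 in every group.

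GJB6, the chromosome 13 neighbor of GJB2 with which it forms mixed channels in the cochlea, differed most within Panc89. Panc89 parental cells had 4.86, 4.58 and 4.59 (24.7 ± 2.84 TPM), Panc89 Holoclone cells had 3.45, 3.60 and 3.77 (11.2 ± 1.36 TPM) and Panc89 Paraclone cells had 0.00, 0.02 and 0.00. The 3 groups were apart from each other, and the Paraclone cells were the only Panc89 group with libraries listed at 0. The Holoclone minus Paraclone difference of 3.60 (SE 0.189) was 6.75 with a pseudocount of 0.1 in place of 1, since the Paraclone level was so close to 0. In Panc1 the level was low and the groups overlapped, at 1.42, 0.79 and 1.63 in parental, 1.10, 0.95 and 0.70 in Holoclone and 0.78, 1.08 and 0.98 in Paraclone cells. The tested genes most alike were EPSTI1 (0.587), LAPTM5 (0.680) and FZD10-AS1 (0.680). EPSTI1 averaged 3.46, 2.32 and 0.19 in Panc89 parental, Holoclone and Paraclone cells.

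Of the 3 connexins that follow each other on chromosome 13, GJB2 and GJB6 had the same first 4 groups in the order of their means. These ran from Panc89 parental over Panc89 Holoclone and Panc1 parental to Panc1 Paraclone cells, and GJA3 had another order. Panc89 parental and Holoclone cells were apart from the next group in both genes, and the later groups of this run overlapped the next. Panc89 Paraclone cells averaged 4.31 in GJB2, as did Panc1 Paraclone cells, but 0.01 in GJB6, its lowest group. Over all 6 groups, the means of the flanking genes covered narrower ranges than those of the 3 connexins. Within Panc1 alone this did not hold throughout, with means of 3.73 to 4.71 for GJB2, 3.05 to 3.73 for GJA3 and 0.92 to 1.28 for GJB6. ZMYM2, 46.4 kb away, averaged 5.04 to 5.14 in the Panc89 groups and 4.28 to 5.32 in the Panc1 groups, and CRYL1, 171.3 kb away on the other side, averaged 2.23 to 2.65 and 3.23 to 4.16. The endothelial markers PECAM1 and CDH5 were also highest in Panc89 parental cells: the summed level of the 3 endothelial markers PECAM1, CDH5 and VWF ran from 55.2 to 69.1 TPM there, from 1.01 to 2.16 TPM in the Holoclone and from 2.95 to 8.90 TPM in the Paraclone cells. In log2(TPM + 1), CDH5 ran from 1.58 to 2.60 in parental, from 0.35 to 0.63 in Holoclone and from 0.98 to 1.54 in Paraclone cells, and VWF reached at most 0.18 in parental cells. The part of these markers in the levels of GJB2 and GJB6 was not tested.

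GJB5, a connexin of stratified epithelium, was listed at 0 in all 6 libraries of Panc1 parental and Panc1 Holoclone cells and reached at most 0.04 in Panc1 Paraclone cells. In Panc89 it lay at 3.44, 3.75 and 3.68 in parental, at 4.86, 4.88 and 4.84 in Holoclone and at 5.10, 4.35 and 4.70 in Paraclone cells. Both Panc89 clones stood above the parental cells, by 1.24 and 1.09, and overlapped each other. No fold is given between the lines, because Panc1 was listed at 0.

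**Figure D2:**
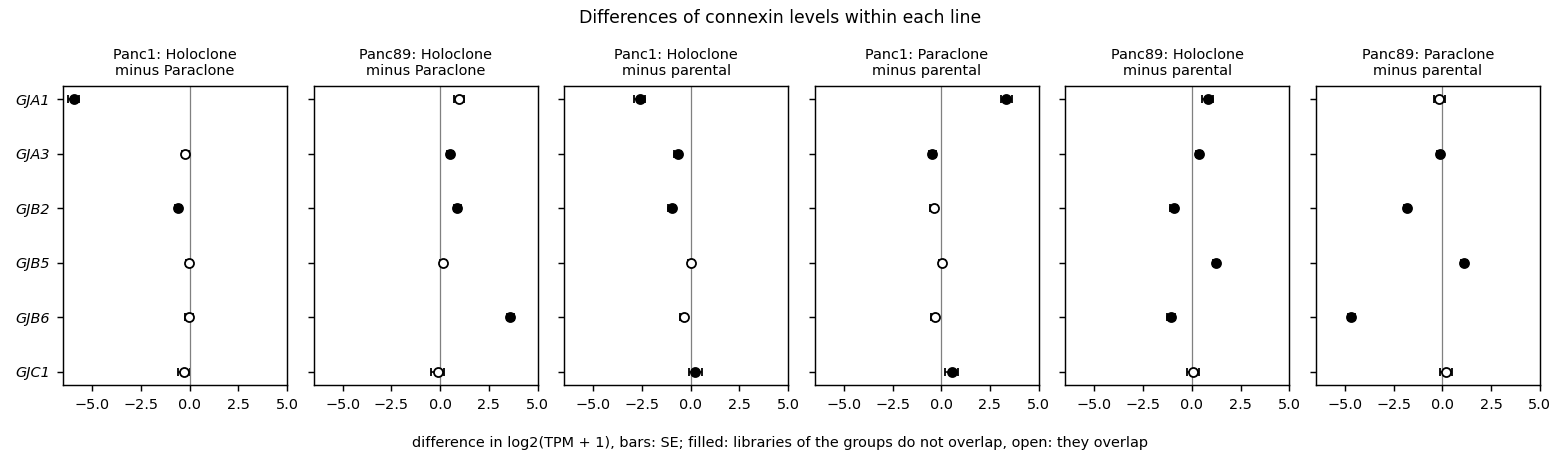
Difference between groups of one line in log2(TPM + 1) on the horizontal axis for the 6 members that passed the filter, with bars of 1 SE, filled points where the libraries of the groups do not overlap and open points where they do. GJA1 has the widest differences in Panc1 (−5.96 for Holoclone minus Paraclone) and GJB6 in Panc89 (3.60 for the same and −4.67 for Paraclone minus parental).

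Counted by limma-trend with a Benjamini-Hochberg adjusted p under 0.05 over all 16093 genes tested, 5 of the 6 members that passed the filter were called between the parental lines, where 66.0% of all genes were called. Between Holoclone and Paraclone cells, 2 members were called in Panc1, where 37.3% of all genes were, and 4 in Panc89, where 35.7% were. Against the parental cells, which both clones of a line share, 3 members were called for Panc1 Holoclone (10.9% of all genes), 2 for Panc1 Paraclone (28.6%), 4 for Panc89 Holoclone (24.7%) and 3 for Panc89 Paraclone cells (19.4%). The members were chosen with these differences known, so nothing is read from the counts. Libraries of the groups did not overlap for 6 members between the parental lines (73.3% of all genes), for 2 (51.3%) and 3 (40.8%) between the clones of Panc1 and of Panc89, and against parental cells for 4 (30.3%) and 3 (42.9%) in the Holoclone and Paraclone cells of Panc1 and 5 (41.2%) and 4 (35.8%) in those of Panc89. Taken between the lines, the Holoclone minus Paraclone difference was higher in Panc89 by 6.93 for GJA1, 3.62 for GJB6 and 1.47 for GJB2, beside a background of 35.1% of all genes called for this difference of changes.

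Leaving out 1 library at a time moved some of these differences. The Holoclone minus Paraclone difference of GJA1 in Panc89, 0.97 with all libraries, was 0.65 without Panc89 Paraclone replicate 1 and 1.42 without Panc89 Paraclone replicate 2. That of GJA3, at 0.52, was 0.34 without Panc89 Holoclone replicate 1 and 0.64 without Panc89 Holoclone replicate 3. In Panc1 the same difference ran from −6.10 to −5.82 for GJA1 and from −0.68 to −0.47 for GJB2. Against parental cells, GJA1 in Panc89 Holoclone cells ran from 0.71 to 0.92, and GJA3 in Panc1 ran from −0.81 to −0.56 in Holoclone and from −0.51 to −0.36 in Paraclone cells.

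The sum over the 7 genes shows how their transcripts were shared out in each variant. It was 82.2 ± 3.17 TPM in Panc1 parental, 57.6 ± 3.82 TPM in its Holoclone and 213 ± 19.1 TPM in its Paraclone cells. In Panc89 it was 128 ± 8.56 TPM in parental, 114 ± 8.81 TPM in Holoclone and 68.7 ± 5.77 TPM in Paraclone cells. Panc1 thus had its highest sum in Paraclone cells and Panc89 its lowest there, while Panc89 parental and Holoclone libraries overlapped. The shares are of these 7 genes alone, and other connexins are not in the sum.

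GJA1 took 15.7% ± 0.787 of the summed TPM in Panc1 parental, 2.23% ± 0.791 in its Holoclone and 65.6% ± 5.32 in its Paraclone cells. GJC1 took the largest share in the first 2 of these groups, 36.7% ± 2.78 and 62.0% ± 1.28, and 20.9% ± 4.01 in Paraclone cells. Its share moved against that of GJA1, while its level was 30.1 ± 1.09 TPM in parental, 35.7 ± 2.28 in Holoclone and 44.5 ± 10.4 in Paraclone cells. In log2(TPM + 1), Holoclone and Paraclone cells stood above the parental cells by 0.24 and 0.53, without overlap. GJB2 took 30.8% ± 3.10, 21.4% ± 2.65 and 8.97% ± 1.25, and GJA3 15.0% ± 1.83, 12.8% ± 2.18 and 4.09% ± 0.390.

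In Panc89 the beta connexins led. GJB2 took 54.0% ± 1.44 in parental, 31.2% ± 1.58 in Holoclone and 28.2% ± 7.52 in Paraclone cells, and GJB6 took 19.2% ± 0.977, 9.88% ± 1.90 and 0.0069% ± 0.012. GJB5 took 8.95% ± 1.59, 24.6% ± 1.81 and 37.8% ± 10.1. Its share was thus above that of GJB2 in Paraclone cells on average, although its level there overlapped that of Holoclone cells. GJA1 took 14.8% ± 1.25, 29.9% ± 2.22 and 27.3% ± 15.5, where the last group ran from 14.8% to 44.7%.

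**Figure D3:**
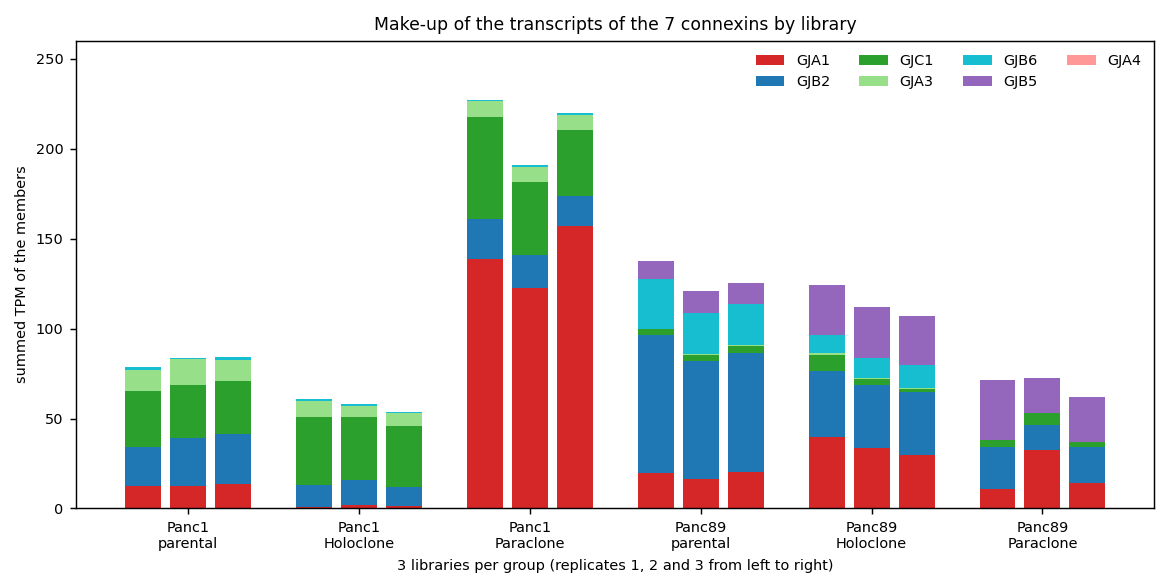
Summed TPM of the 7 connexin genes on the vertical axis in each of the 18 libraries, stacked by gene, with the replicates 1, 2 and 3 of a group from left to right. GJA1 makes up most of each Panc1 Paraclone bar (65.6% on average), GJC1 most of each Panc1 Holoclone bar (62.0%) and GJB2 most of each Panc89 parental bar (54.0%).

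Of the connexins outside the members, GJA5 reached at most 1.27 TPM in any library, in Panc89 Paraclone cells, and GJE1 was listed at 0 throughout. GJB7 lay at 0.84 to 0.95 in Panc1 parental cells, fell by 0.86 in Panc1 Holoclone cells (adjusted p = 0.00229 by limma-trend) and was listed at 0 in every Panc1 Paraclone library. Between the parental lines GJB7 was higher in Panc89 by 0.49 (adjusted p = 0.0134 by limma-trend, and 0.0740 without Panc89 parental replicate 1). Exons of GJB7, on the minus strand, overlap exons of SMIM8, on the plus strand. Whether reads of SMIM8 entered the level of GJB7 was not tested.

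Pannexins form channels of like shape in single membranes. PANX1 was lower in Panc89 than in Panc1 parental cells, by −1.02 (limma-trend adjusted p = 2.93e-05), and higher in Holoclone than in Paraclone cells of Panc89, by 0.53 (adjusted p = 0.0148). The second call was lost without Panc89 Holoclone replicate 1 (adjusted p = 0.0549) or without Panc89 Paraclone replicate 3 (0.0653). PANX2 was higher in Panc89 parental cells by 2.30 (limma-trend adjusted p = 3.39e-06). In Panc1 its means had the order of GJA1, with libraries at 2.50, 2.97 and 3.03 in Paraclone against 1.24, 0.80 and 1.21 in Holoclone cells. The Holoclone minus Paraclone difference was −1.75 (adjusted p = 0.000193 by limma-trend). Unlike in GJA1, the Panc1 parental libraries, at 1.35, 1.24 and 1.18, overlapped the Holoclone ones. PANX3 and the pseudogene GJA6P were listed at 0 in every library.

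Further lists hold genes of proteins that Cx43 is known to work with, 21 for scaffolds and trafficking and 12 for kinases. Another list holds 14 transcription factors described at connexin genes. All genes of these lists were tested. Between the parental lines, 8 scaffold and trafficking genes were higher in Panc89, 5 were lower and 8 were not called, against 27.5% higher and 38.5% lower among all genes. Their median difference was −0.07, against −0.18 for all genes. With median-of-ratios scaling the counts higher and lower were 9 and 4 for these genes, 3 and 3 for the kinases and 8 and 4 for the factors. CDH1, which brings cells into the contact that gap junctions need, differed by 5.05 (limma-trend adjusted p = 2.45e-12). CCN3, a secreted protein that binds the tail of Cx43, lay at 3.05, 2.76 and 3.06 in Panc89 parental cells and was listed at 0 in Panc1 parental cells.

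Of the kinases, 1 was higher and 4 were lower in Panc89 parental cells, with a median of −0.31. PRKCA, which phosphorylates the tail of Cx43, differed by −2.75 (limma-trend adjusted p = 5.56e-10), AKT1 by −0.94 (adjusted p = 7.92e-06) and PRKCE by −0.81 (adjusted p = 0.00121). Among the factors, 6 were higher and 5 lower, with a median of 0.25. TP63, a master regulator of stratified epithelium, was at 0.15, 0.07 and 0.06 in Panc1 and at 5.64, 5.09 and 5.64 in Panc89 parental cells (5.37, adjusted p = 2.25e-12 by limma-trend). FOS and FOSB, immediate early genes of the AP-1 family, differed by 3.67 (adjusted p = 0.000268) and 3.03 (adjusted p = 0.00289 by limma-trend), with Panc1 parental replicate 3 high in both, at 7.02 against 3.53 and 3.16 for FOS and at 5.52 against 2.02 and 0.92 for FOSB. GJA1 in that library was at 3.87, against 3.77 and 3.74, and a relation of GJA1 to FOS or FOSB was not tested.

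Between Holoclone and Paraclone cells of Panc1, 6 scaffold and trafficking genes were higher, 1 was lower and 14 were not called, with 27.4% of all genes higher and 9.97% lower. The kinases gave 4 higher and 0 lower and the factors 2 higher and 0 lower. The medians were 0.20, 0.33 and 0.08, against 0.19 for all genes. With median-of-ratios scaling, which sets that last median to near 0, the counts were 2 higher and 4 lower for scaffolds and trafficking, 1 and 2 for kinases and 1 and 2 for factors, so the balance of directions in these lists depended on the scaling. CDH2, the mesenchymal cadherin, was higher in Holoclone cells by 2.63 (limma-trend adjusted p = 3.44e-06), at 3.65, 4.11 and 3.87 against 1.49, 1.06 and 1.17. TJP1, a scaffold that binds Cx43 at the edge of its plaques, was higher by 1.12 (adjusted p = 7.45e-05), while CDH1 was lower by −0.95 (adjusted p = 0.00094 by limma-trend). Thus in Panc1 CDH2 and TJP1 were higher in the cells with the lowest GJA1 level. In Panc89, CDH2 was also higher in Holoclone cells, by 0.95 with overlap (adjusted p = 0.0161 by limma-trend), where GJA1 was the higher on average. That call was lost with the groups compared alone (adjusted p = 0.161). It was also lost without Panc89 Holoclone replicate 1 (0.0749) or without Panc89 Paraclone replicate 1 (0.0854) or 3 (0.0768).

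Among the kinases in Panc1, SRC, a tyrosine kinase known to close Cx43 channels, differed by 0.76 (limma-trend adjusted p = 0.000231), PRKCA by 0.67 (adjusted p = 0.00407) and PRKCE by 0.58 (adjusted p = 0.0222). PRKCA and PRKCE were not called with median-of-ratios scaling (adjusted p = 0.0675 and 0.284 by limma-trend), and PRKCE was not called without Panc1 Holoclone replicate 3 (adjusted p = 0.0981) or without Panc1 Paraclone replicate 2 (0.0785) or 3 (0.0543). Of the factors, SP3, which binds GC-rich boxes such as those in the GJA3 and GJB2 windows, was higher in Holoclone cells by 1.02 (adjusted p = 3.12e-05 by limma-trend). JUND, an AP-1 member, was higher by 0.50 (limma-trend adjusted p = 0.0487), a call that was lost with no filter (adjusted p = 0.0869), with median-of-ratios scaling (0.501) and without any 1 of Panc1 Holoclone replicates 1, 2 and 3 and Panc1 Paraclone replicates 1 and 2, at adjusted p from 0.0601 to 0.183.

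Between Holoclone and Paraclone cells of Panc89, 2 scaffold and trafficking genes were higher and 2 were lower, 4 kinases were higher and 1 was lower, and 2 factors were higher and 2 were lower, with 22.4% of all genes higher and 13.3% lower. Median-of-ratios scaling gave 2 and 4, 4 and 2, and 2 and 3. The medians were 0.21, 0.20 and 0.03, against 0.09 for all genes. SMURF2, a ubiquitin ligase that acts on Cx43, was lower in Holoclone cells by −1.36 (limma-trend adjusted p = 0.000209) and EZR, an anchor for protein kinase A near the junction, by −1.31 (adjusted p = 0.000377). NEDD4, a ubiquitin ligase that binds the tail of Cx43, was higher by 0.63 (adjusted p = 0.0209 by limma-trend), with adjusted p of 0.0564, 0.0844 and 0.117 without Panc89 Holoclone replicate 3, Panc89 Paraclone replicate 1 and Panc89 Paraclone replicate 3.

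SRC in Panc89 lay at 5.73, 5.36 and 5.43 in Holoclone and at 3.73, 3.60 and 3.57 in Paraclone cells (1.87, limma-trend adjusted p = 2.49e-08). PRKCA differed by 1.18 (adjusted p = 4.06e-05) and PRKCE by 0.81 (adjusted p = 0.00284 by limma-trend), so these 3 kinases were higher in the Holoclone cells of both lines, except that PRKCA and PRKCE in Panc1 were not called with median-of-ratios scaling. TP63 averaged 7.16 ± 0.140 in the Holoclone libraries and 4.07 ± 0.484 in the Paraclone libraries without overlap (3.09, limma-trend adjusted p = 1.39e-08). Its level in Panc89 parental cells, 5.46 on average, lay between the clones. GJB6 and GJB2 were highest in the parental cells, and a relation of TP63 to them was not tested. TFAP2A, whose motif was matched in the GJB2 window, was lower in Holoclone cells by −1.09 (adjusted p = 0.000606), and FOSL2, an AP-1 member, was higher by 1.01 (adjusted p = 0.00613 by limma-trend).

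Panc89 Paraclone replicate 2, the library least like its group, stood apart in several of these genes. Beside GJA1 at 5.06, CDH2 was at 3.00 there against 1.77 and 1.90 in replicates 1 and 3. It was low instead in PANX2, at 2.49 against 4.07 and 3.53. GJB2 and GJB5 were also lowest there among the 3 Paraclone libraries. In Panc89 Holoclone cells, replicate 1 was the highest of its group in GJA1, GJA3 and GJC1.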

How the data were processed

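RNA of 3 passages of each cell variant was made into stranded mRNA libraries and sequenced paired-end, and the authors quantified transcripts with kallisto 0.46.1 against Ensembl GRCh38 (release 106) and summarized them with tximport as scaled TPM. The kallisto strand setting is not given in the sources used here. The deposited values are log2(TPM + 1), given per symbol and library. They hold no counts, so the count test of the study's methods was not run, and TPM that sum to about the same total rise for one gene where others fall.

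Libraries were grouped by their deposited labels. Differences, SE and two-sided p-values come from limma 3.58.1 (eBayes with trend, R 4.3.3) on the 16093 genes that reached 1 TPM in 3 or more libraries, fitted with 6 group means, Benjamini-Hochberg adjustment and a threshold of 0.05. The fit was tested on simulated data. The connexins and gene lists were chosen with earlier results of these data known. Named are the 7 members, other connexins, pannexins and pseudogenes, in each of the 3 partner lists up to 3 called genes per comparison with the largest difference and no overlap, the 3 tested genes most alike to GJA1, GJB2 and GJB6, and the nearest tested gene on each side of a member. Some genes that this rule names are not reported here, though counts over the lists include them. Alternatives were a pseudocount of 0.1, no filter, the groups compared alone, a replicate block, median-of-ratios scaling and leaving out each library.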

Additional observations from a re-analysis of the deposited data

Results flagged for a closer look

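The change from Paraclone to Holoclone cells went in opposite directions in the 2 lines for GJB2 in every library, with a Panc89 minus Panc1 difference of 1.47, which was not tested. Among the other connexins, pannexins and partner list genes reported, the same difference of changes passed the limma-trend test for 10, beside 35.1% of all genes. Genes named for their likeness to a member were chosen by their pattern and are not among them. The partner list genes were themselves named for called differences among the largest, many of them between these same clones. The count is thus not independent of that choice, and nothing is read from it beside the share. By limma-trend the difference of changes was above 0, with a more positive change in Panc89, for TP63 (3.43, adjusted p = 2.37e-07), PANX2 (1.89, adjusted p = 0.00192), FOSL2 (1.31, adjusted p = 0.0113), SRC (1.11, adjusted p = 0.000206) and CDH1 (0.90, adjusted p = 0.0154). It was below 0 for CDH2 (−1.69, adjusted p = 0.004), SMURF2 (−1.13, adjusted p = 0.0117), TJP1 (−0.84, adjusted p = 0.0105), SP3 (−0.72, adjusted p = 0.00897) and AKT1 (−0.53, adjusted p = 0.032). TP63 was near 0 in the Panc1 clones, with means of 0.08 in Holoclone and 0.42 in Paraclone cells. CDH1 was low there too, with means of 0.97 and 1.92. No group was tested for a library far from the rest, since each holds 3.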

How the results depend on the processing

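Depth is unknown, and 3 passages per group limit the precision. Of the named genes' differences under the alternatives, members left out, 644 kept direction and side of the threshold, 35 lost a call and 14 gained one, with no called value turned in direction. The count of members called in Panc1 Holoclone against Paraclone cells was 2, with 3 under median-of-ratios scaling and 1 to 2 when 1 library was left out. Between the parental lines it was 5, and 6 with the groups compared alone or with that scaling. In Panc89 Holoclone against Paraclone cells the count was 4, with 2 when the groups were compared alone and 2 to 4 when 1 library was left out. With no filter, where GJA4 (at most 0.0829 TPM) was tested too, the count was 5. For Panc1 Paraclone against parental cells it was 2, with 1 under a pseudocount of 0.1, with no filter, with the groups compared alone and with median-of-ratios scaling, and 1 to 2 with 1 library left out. For Panc1 Holoclone against parental cells it was 3, and 2 under a pseudocount of 0.1, with both groups fitted alone or without replicate 2 or 3 of the Panc1 Holoclone cells. For Panc89 Holoclone against parental cells it was 4, and 3 with no filter and without any 1 library, and for Panc89 Paraclone against parental cells 3, and 4 without Panc89 Paraclone replicate 2. Fitted alone, the groups no longer gave the calls of FOSB between the parental lines (adjusted p = 0.0507 by limma-trend), of JUND in Panc1 (0.0749) and of PRKCE and NEDD4 in Panc89 (0.0593 and 0.127). Deviations of libraries with the same replicate number had correlations from −0.318 to 0.190 over 18 pairs, so the numbers were not taken as pairs. With the replicate block, 1 member in place of 2 was called for Panc1 Paraclone against parental cells and 3 in place of 4 for Panc89 Holoclone against parental cells. By limma-trend with the block, the call of NEDD4 in Panc89 was lost (adjusted p = 0.0545), and JUND between the parental lines (0.0262) and TFAP2A between the Panc1 clones (0.0477) were called. The scaling moved the share of higher calls among all genes from 73.3% to 46.8% in Panc1 Holoclone against Paraclone cells, from 62.8% to 49.1% in the same comparison of Panc89 and from 41.6% to 51.6% between the parental lines.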
